A study of Mus musculus with 6 samples.

Results

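Chemokines and chemokine receptors were followed in RNA-seq of hair follicle bulge SCs that lacked integrin-linked kinase (ILK) and of control bulge SCs. The members were all genes whose mouse symbol is Ccl, Ccr, Cxcl or Cxcr followed by a number, or Ackr followed by a number, together with Cx3cl1, Cx3cr1, Xcl1, Xcr1, Ccrl2 and Pf4. This gave 62 of the 43274 genes in the deposited table, 39 ligands and 23 receptors. CD34+ cells with high α6 integrin had been isolated by FACS from the epidermis at postnatal day 21, and 3 control and 3 ILK-K5 libraries were sequenced. ILK-K5 mice carried floxed Ilk on both alleles and Cre under the keratin 5 promoter. Control mice carried the same Cre with a single floxed Ilk allele, so that keratin 5-expressing cells of the controls had lost 1 copy of Ilk and were not fully wild type. The mice had a mixed C57Bl6 and 129/Sv background, controls were littermates, and Cre under this promoter is known to act in basal keratinocytes and other stratified epithelial cells, not in leukocytes. Whether a library came from 1 mouse or from pooled mice is not given in the sources used here, and p-values therefore measure the spread between libraries.

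Chemokines are small secreted proteins that guide migrating cells along a gradient. Their names follow the spacing of conserved cysteines near the amino terminus (CC, CXC, CX3C and XC), and most act on receptors of the same class that couple to inhibitory G proteins. The atypical receptors, which include those named Ackr, bind and remove or present chemokines without coupling to G proteins. In skin, keratinocytes make chemokines that position Langerhans cells, T cells and other leukocytes, and the hair follicle is a known entry site for leukocytes into the epidermis.

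Libraries held 8228019 to 11969072 reads on genes, and 1 read corresponded to between 0.726 and 1.52 normalized counts. A gene with 0 reads in a library could thus still have been present at up to 3 reads, a limit that covers counting error only. The targeted gene Ilk had normalized counts of 11, 17 and 38 in the control and 15, 31 and 29 in the ILK-K5 libraries. As 89.7% of its exon bases lie on Taf10 and Rrp8, this count was no check of the genotype. Of the sort markers, Itga6, which encodes α6 integrin, ranged from 1955 to 2993 normalized counts over the 6 libraries. Cd34 ranged from 947 to 2009 in the control and from 296 to 560 in the ILK-K5 libraries and was lower in ILK-K5 (log2 fold change -1.90, SE 0.37, adjusted p = 0.0239). This call was lost when libraries 1 or 3 of either genotype were left out singly (adjusted p 0.0567 to 0.091) and in replicates 2 and 3 alone (adjusted p = 0.128). Replicate 1 of each genotype had another number at the end of its column name than replicates 2 and 3, and what this number marks is not stated.

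Of the 62 members, 47 had a promoter in the RefSeq table for GRCm38.p6, and the 250 bases before each start were searched on both strands for the NF-κB consensus, the binding motif of the NF-κB transcription factors, by its usual degenerate letters. A match was present in at least 1 promoter of 10 of these 47 members. Counted per promoter and not per gene, a match was present in 1281 of all 32841 promoters (3.9%). Some members had more than 1 promoter, so these shares differ in unit. Among the ligands that were higher in ILK-K5 (values are given with each gene), 3 of the 7 with a promoter held a match, namely Ccl9, Cxcl1 and Cxcl2, and among the higher receptors 1 of 4, Ccrl2. The other matches were before Cxcl10, Cxcl3, Ccl20, Ackr2, Ccr3 and Ccr6. Cxcl1, Cxcl2 and Cxcl3 lie in the same stretch of chromosome 5, with Cxcl15 between Cxcl3 and Cxcl1. The promoters of Cxcl1, Cxcl2 and Cxcl3 share an unbroken run of 11 bases in which 2 matches overlap. This run was found in 14 of all 32841 promoters (0.0426%). The sequences of these 3 genes are shown because Cxcl1 and Cxcl2 are neighbouring ligands that were both called higher. Of the 3 promoters of Ccrl2, 1 is shown because it is the one with a match among the promoters of the called receptors. The other promoters of Ccrl2 held none. Each line gives 120 bases, from 150 to 31 bases before the start, 5′ to 3′, with the NF-κB matches in capitals.
Cxcl1, chr5:90891095-90891214, plus strand: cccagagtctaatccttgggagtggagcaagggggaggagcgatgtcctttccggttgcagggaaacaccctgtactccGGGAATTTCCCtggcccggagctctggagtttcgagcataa
Cxcl2, chr5:90903749-90903868, plus strand: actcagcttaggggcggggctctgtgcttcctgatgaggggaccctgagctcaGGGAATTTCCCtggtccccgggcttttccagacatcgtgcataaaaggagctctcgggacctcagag
Cxcl3, chr5:90785951-90786070, plus strand: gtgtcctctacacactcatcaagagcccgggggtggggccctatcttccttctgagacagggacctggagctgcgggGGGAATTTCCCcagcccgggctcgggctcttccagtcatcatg
Ccrl2, chr9:111057549-111057668, minus strand: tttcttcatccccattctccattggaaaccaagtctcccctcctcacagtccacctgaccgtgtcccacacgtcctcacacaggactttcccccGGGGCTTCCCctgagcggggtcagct
The match before Ccl9 began 35 bases before its start, and it runs past the end of the stretch printed for the others. An interferon-response pattern, TTTCNNTTTC on either strand, was found before Cxcl10, Cxcl14 and Ccl19, and in 2.98% of all promoters. These matches describe the letters of the promoters, and no binding was measured.

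More ligands were called higher than lower in the sorted ILK-K5 libraries. Of the 39 ligands, 20 had a mean of at least 10 normalized counts and were tested. Of these, 9 were higher, 2 were lower and 9 did not pass the test at an adjusted p of 0.05 (limma, adjusted over 16368 genes). Over all genes tested, 2.93% were higher and 0.599% were lower. The median log2 fold change of the tested ligands was 2.64, and that of all genes tested was 0.01. All ILK-K5 libraries lay above all control libraries for 13 of the 20 ligands, and below them for 2, against 10.9% and 6.95% of all genes tested. Ccl2, Ccl3, Ccl9, Ccl17, Cxcl2 and Pf4 had control means of at most 6.81 and passed the filter only through their ILK-K5 libraries. These counts and medians are thus partly set by the filter, as are those of the receptors and gene lists that follow. Among all genes with any read, 12 of 39 ligands were higher and 2 lower, against 509 and 101 of 34213 genes. Fold changes are on the scale of log2 of the normalized count plus 1, which understates the change of genes that were near 0 in the controls. In a sorted bulk fraction, fewer cells of a type and less RNA per cell cannot be told apart, for these and all values that follow. The count of higher ligands was 5 without any 1 of the 3 ILK-K5 libraries, and between 8 and 11 without a control library.

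**Figure D1:**
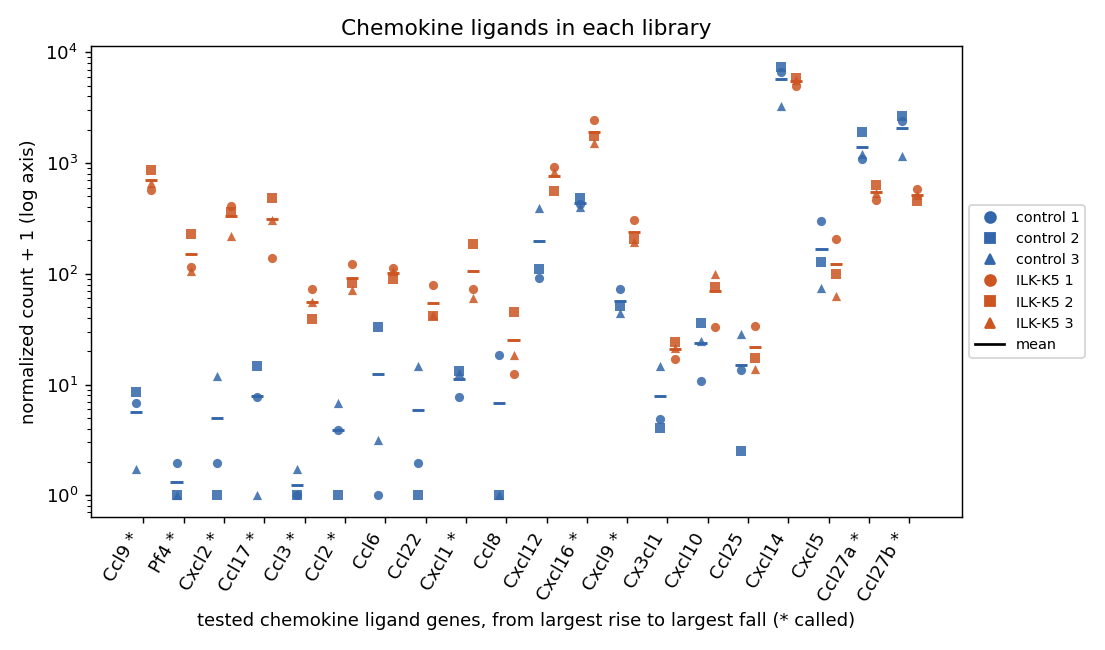
Normalized count plus 1 (log axis) of the 20 tested chemokine ligands in each of the 3 control (blue) and 3 ILK-K5 (orange) libraries, with a bar at the mean and an asterisk for called genes. Ccl9, Pf4, Cxcl2, Ccl17, Ccl3 and Ccl2 stand at the left with all control libraries below 14 normalized counts and all ILK-K5 libraries above 37, whereas Cxcl14 overlaps between the genotypes.

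On the log2(normalized count + 1) scale the largest rise was that of Ccl9, a ligand of Ccr1 made by myeloid cells. In edgeR and DESeq2 that of Pf4 was larger (8.39 and 8.65, against 7.34 and 7.35 for Ccl9). The normalized counts of Ccl9 were 5.79, 7.60 and 0.726 in the control and 576, 864 and 654 in the ILK-K5 libraries (log2 fold change 7.21, SE 0.62, adjusted p = 3.68e-04). Every ILK-K5 library was far above every control, and the call held without any single library. Ccl6, the neighbour of Ccl9 and also a myeloid ligand, had 0, 31.9 and 2.18 in the control and 112, 87.9 and 105 in the ILK-K5 libraries. The groups did not overlap, but control library 2 stood well above the other two, and Ccl6 did not pass the test (log2 fold change 4.44, 95% interval 1.95 to 6.92, adjusted p = 0.0678). Its adjusted p was 0.00902 without control library 2 and 0.0284 in DESeq2.

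Ccl3, which acts on Ccr1, had 1 read in all control libraries together. Its normalized counts were 0, 0 and 0.726 in the control and 71.7, 37.8 and 54.5 in the ILK-K5 libraries (log2 fold change 5.49, SE 0.75, adjusted p = 0.00384). By reads, ILK-K5 was 161-fold higher, with an exact 95% counting interval of 28.5 to 6405. The call was lost without ILK-K5 library 1 or 3, with adjusted p values of 0.0508 and 0.0597. Ccl4, an inflammatory ligand that lies beside Ccl3, and Ccl5, which attracts T cells and monocytes, were below the filter. Both had no read in any control library. Against a floor of 3 reads per library, the level of Ccl5 in ILK-K5 was at least 5.47-fold higher. Ccl4 had 3, 16 and 3 reads in the ILK-K5 libraries, and without library 2 its level was no longer above the floor.

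Ccl2, the main ligand of Ccr2, had 2.89, 0 and 5.80 normalized counts in the control and 121, 81.8 and 71.1 in the ILK-K5 libraries (log2 fold change 4.91, SE 0.79, adjusted p = 0.00924). The groups were far apart, but the call was lost without any 1 of the ILK-K5 libraries (adjusted p 0.051 to 0.0633) and with a pseudocount of 0.1 (adjusted p = 0.0637). Of the 5 genes beside Ccl2 on chromosome 11, Ccl8 was the one other tested gene. It had 17.4, 0 and 0 in the control and 11.4, 44.0 and 17.5 in the ILK-K5 libraries, and the groups overlapped (log2 fold change 3.04, 95% interval 0.27 to 5.82, adjusted p = 0.333). Without control library 1, which held all of its control reads, the adjusted p was 0.0354. Ccl7, Ccl11, Ccl12 and Ccl1 had too few counts to be tested. Ccl12, which acts on Ccr2 in the mouse, had no read in the controls, and ILK-K5 libraries were at least 2.77-fold higher, or at least 1.52-fold without library 2, which held 22 of its reads.

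Cxcl1 and Cxcl2, which recruit neutrophils through Cxcr2 and whose promoters are printed above, were both higher. Cxcl2 had 0.965, 0 and 10.9 normalized counts in the control and 410, 357 and 219 in the ILK-K5 libraries (log2 fold change 6.80, SE 0.86, adjusted p = 0.00235). Its call held without any single library. Cxcl1 had 6.75, 12.2 and 11.6 in the control and 71.7, 185 and 59.4 in the ILK-K5 libraries (log2 fold change 3.10, SE 0.58, adjusted p = 0.0193), with ILK-K5 library 2 highest. The call for Cxcl1 was lost without control library 2 and without any 1 of the ILK-K5 libraries (adjusted p 0.0559 to 0.153). Cxcl5, another Cxcr2 ligand of the same stretch of chromosome 5, behaved differently. It had 299, 128 and 74.0 in the control and 205, 99.5 and 61.4 in the ILK-K5 libraries, the groups overlapped and library 1 was highest in both genotypes (log2 fold change -0.39, 95% interval -1.72 to 0.94, adjusted p = 0.901). Cxcl3 had 2 reads in all controls and at most 3 in each ILK-K5 library, at the floor in both genotypes. Cxcl2 shares 7.59% of its 31-base words with transcripts of Cxcl3, and how reads on such stretches were assigned is not given in the sources used here.

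Pf4, also called Cxcl4, is stored in platelet granules and is also made by some macrophages. It lies in the same stretch as Cxcl1 and Cxcl2. Its normalized counts were 0.965, 0 and 0 in the control, a single read, and 115, 229 and 106 in the ILK-K5 libraries (log2 fold change 6.82, SE 0.68, adjusted p = 7.72e-04). By reads, ILK-K5 was 487-fold higher, with a counting interval of 86.9 to 19254. The call held without any single library.

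Ccl17 and Ccl22, the ligands of Ccr4, lie on either side of Cx3cl1 on chromosome 8. Ccl17 had 6.75, 13.7 and 0 normalized counts in the control and 139, 483 and 305 in the ILK-K5 libraries (log2 fold change 5.82, SE 0.95, adjusted p = 0.00972). The call was lost without ILK-K5 library 2 (adjusted p = 0.0604) and with a pseudocount of 0.1 (adjusted p = 0.0637). Ccl22 had 0.965, 0 and 13.8 in the control and 78.6, 40.9 and 41.9 in the ILK-K5 libraries. Its groups did not overlap either, but it did not pass the test (log2 fold change 4.09, 95% interval 1.83 to 6.35, adjusted p = 0.0638). Its adjusted p was 0.00829 without control library 3, its highest control, and 0.0155 in DESeq2. Cx3cl1, the membrane-bound ligand of Cx3cr1, had 3.86, 3.04 and 13.8 in the control and 15.9, 23.1 and 20.5 in the ILK-K5 libraries and did not pass the test (log2 fold change 1.64, 95% interval -0.03 to 3.31, adjusted p = 0.422).

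Cxcl16, a membrane-bound ligand of Cxcr6, was already well expressed in the controls. Its normalized counts were 428, 482 and 398 in the control and 2456, 1752 and 1505 in the ILK-K5 libraries (log2 fold change 2.10, SE 0.27, adjusted p = 0.00263). This was a rise of 4.28-fold, with every ILK-K5 library above every control, and it held without any single library. On the opposite strand, Zmynd15 overlaps 18.3% of the exon bases of Cxcl16, and whether reads were counted by strand is not given in the sources used here. Cxcl9, an interferon-induced ligand of Cxcr3, rose by a similar 4.2-fold. It had 72.4, 50.2 and 43.5 in the control and 306, 206 and 194 in the ILK-K5 libraries (log2 fold change 2.07, SE 0.36, adjusted p = 0.0145), and the call was lost without control library 2 or any 1 of the ILK-K5 libraries (adjusted p 0.0629 to 0.0716). Its neighbour Cxcl10, which also acts on Cxcr3, had 9.65, 35.0 and 23.9 in the control and 31.9, 74.8 and 98.4 in the ILK-K5 libraries and overlapped between the genotypes (log2 fold change 1.57, 95% interval 0.14 to 2.99, adjusted p = 0.334, and 0.0484 with the column name ending as a term).

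Cxcl12, the ligand of Cxcr4 and Ackr3, is made by stromal cells and retains stem and immune cells in their niches. It had 90.7, 109 and 395 normalized counts in the control and 927, 555 and 825 in the ILK-K5 libraries. All ILK-K5 libraries were higher, but control library 3 was nearer to them than the other controls, and Cxcl12 did not pass the test (log2 fold change 2.24, 95% interval 1.07 to 3.42, adjusted p = 0.0529). The adjusted p was 0.00228 without control library 3 and 0.0118 in DESeq2. Ccl25, which attracts cells through Ccr9, had 12.5, 1.52 and 27.6 in the control and 33, 16.2 and 12.7 in the ILK-K5 libraries and overlapped (log2 fold change 1.01, 95% interval -1.10 to 3.13, adjusted p = 0.808).

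The ligands that fell were both forms of Ccl27, a keratinocyte chemokine that draws skin-homing T cells through Ccr10. Ccl27b had 2413, 2647 and 1165 normalized counts in the control and 583, 450 and 509 in the ILK-K5 libraries (log2 fold change -1.93, SE 0.34, adjusted p = 0.0148). Ccl27a had 1099, 1889 and 1217 in the control and 462, 634 and 532 in the ILK-K5 libraries (log2 fold change -1.34, SE 0.29, adjusted p = 0.0381). In both, each ILK-K5 library was below each control, and the falls were 3.81-fold and 2.53-fold. The 2 genes are near-identical copies on chromosome 4. All 31-base words of the Ccl27b transcript (100%), and 57% of those of Ccl27a, also occur in transcripts of other genes, so how reads were divided between the copies is uncertain and the pair counts as 1 observation. The calls were not stable. Ccl27b lost its call without control library 2, ILK-K5 library 2 or ILK-K5 library 3 (adjusted p 0.064 to 0.0783), and Ccl27a lost it in 5 of the 6 fits with a library left out, all but that without control library 1 (adjusted p 0.0533 to 0.169).

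Cxcl14, a chemokine made at high level by epithelial cells, had 6719, 7329 and 3271 normalized counts in the control and 4993, 5909 and 5589 in the ILK-K5 libraries. The groups overlapped fully, with control library 3 lowest (log2 fold change 0.01, 95% interval -0.78 to 0.80, adjusted p = 0.997). The interval leaves room for a change of either sign of this size, and the sign itself turned with the method and with the library left out.

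Per transcript length, Ccl27b and Cxcl14 made up most of the ligand RNA in the sorted control libraries. Mean FPKM in the controls was 501 (range 281 to 639) for Ccl27b, which was 54% of the summed FPKM of all ligands, and 325 (184 to 412) for Cxcl14, or 35%. These ranges overlap. Ccl27a followed at 60.5 (47.4 to 81.5), Cxcl16 at 14.8 (13.5 to 16.4) and Cxcl5 at 10.3 (4.59 to 18.5), of which the latter pair overlap. In ILK-K5 the order was different. Cxcl14 came first at 309 (281 to 332), or 41.2% of the summed ligand FPKM, followed by Ccl27b at 124 (108 to 141), Cxcl16 at 64.6 (51.1 to 83.4) and Ccl17 at 61.7 (27.8 to 96.5). Cxcl16 and Ccl17 did not differ beyond their ranges. Cxcl2, at 32.0, Pf4, at 26.3, Ccl9, at 23.5, and Ccl27a, at 23.4, came next. Ccl17, Cxcl2, Pf4 and Ccl9, with control means of at most 1.36 FPKM, thus reached levels near or above those of Ccl27a. The FPKM of Ccl27a and Ccl27b, and so their ranks and shares, rest on an uncertain division of reads between these copies. By mean normalized counts, which are not corrected for length, Cxcl14 (5773) was above Ccl27b (2075) in the controls.

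**Figure D2:**
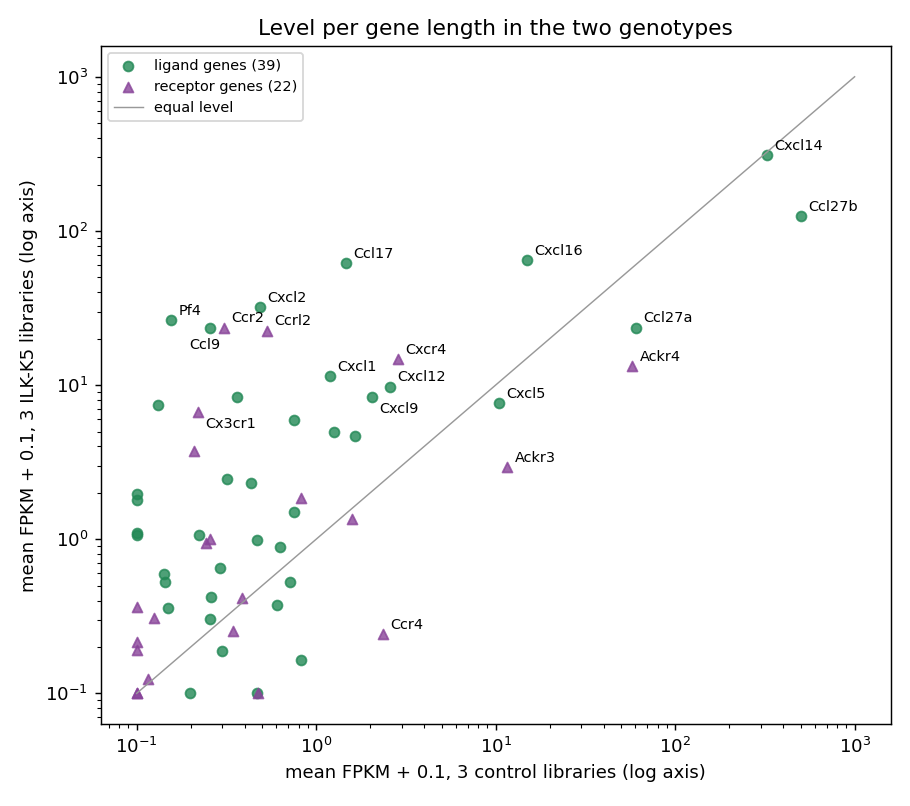
Mean FPKM plus 0.1 over 3 ILK-K5 libraries against that over 3 control libraries (both log axes), 1 point per member, circles for the 39 ligands and triangles for 22 of the 23 receptors. Cxcl14 lies on the line of equal level, Ccl27b, Ccl27a, Ackr4 and Ackr3 lie below it, and Ccl17, Cxcl2, Pf4, Ccl9, Ccr2 and Ccrl2 lie far above it.

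More receptors, too, were called higher than lower in ILK-K5. Both that fell were atypical receptors named Ackr, while Ccrl2, also atypical, was called higher. Of the 23 receptors, 13 were tested, of which 5 were higher, 2 were lower and 6 did not pass the test, against 2.93% higher and 0.599% lower of all genes tested. Their median log2 fold change was 2.37. All ILK-K5 libraries lay above all controls for 8 of the 13 receptors and below them for 2, against 10.9% and 6.95% of all genes tested. Ccr1, Cx3cr1, Ccrl2 and Xcr1, among others, had control means of at most 8.87 and passed the filter only through their ILK-K5 libraries. Among all genes with any read, 6 of 21 receptors were higher and 2 lower, against 509 and 101 of 34213 genes. The count of higher receptors was between 4 and 6 with any single library left out, and 3 with a pseudocount of 0.1.

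**Figure D3:**
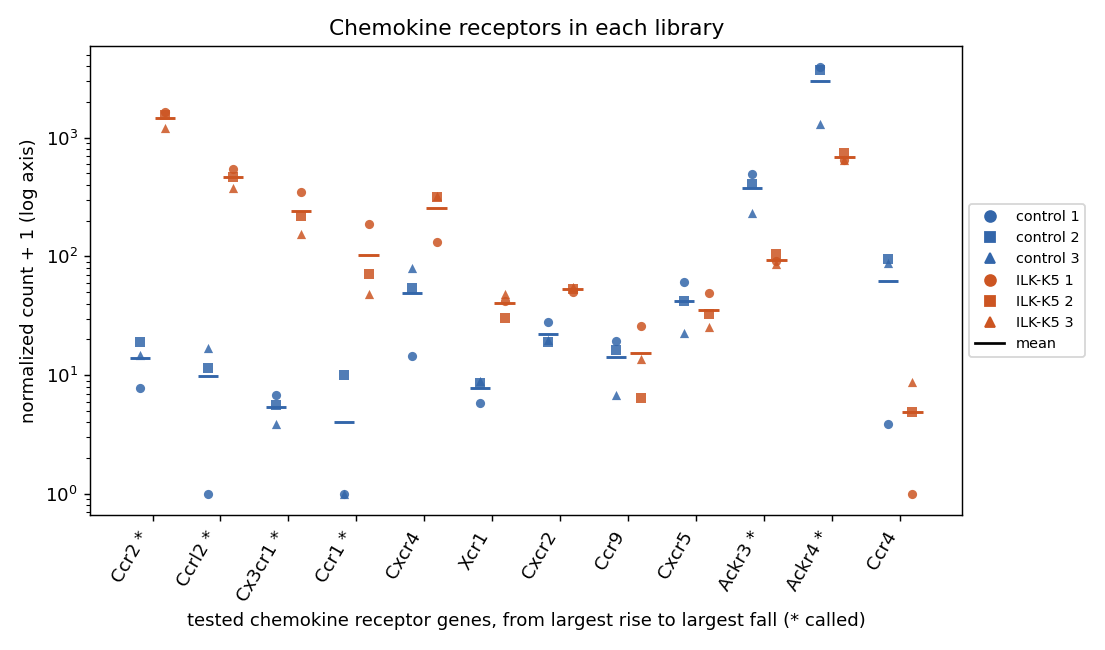
Normalized count plus 1 (log axis) of 12 of the 13 tested receptors in each of the 3 control (blue) and 3 ILK-K5 (orange) libraries, with a bar at the mean and an asterisk for called genes. Ccr2 has the highest ILK-K5 counts, between 1210 and 1638, and the fall of Ackr3 and Ackr4 is seen at the right.

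Ccr2, the receptor of Ccl2 that marks inflammatory monocytes, had the smallest adjusted p of all members. Its normalized counts were 6.75, 18.2 and 13.8 in the control and 1638, 1539 and 1210 in the ILK-K5 libraries (log2 fold change 6.80, SE 0.40, adjusted p = 7.82e-05), a rise of 111-fold. Cx3cr1, the receptor of Cx3cl1 on monocytes, macrophages and Langerhans cell precursors, had 5.79, 4.56 and 2.90 in the control and 348, 217 and 155 in the ILK-K5 libraries (log2 fold change 5.43, SE 0.51, adjusted p = 5.94e-04). The lowest ILK-K5 library was at 1210 and the highest control at 18.2 for Ccr2, and at 155 and 5.79 for Cx3cr1. Both calls held without any single library.

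Ccrl2, an atypical receptor that binds the chemoattractant chemerin and presents it to Cmklr1, had 0, 10.6 and 16 normalized counts in the control and 546, 464 and 375 in the ILK-K5 libraries (log2 fold change 6.30, SE 0.93, adjusted p = 0.00572). Its call held without any single library but not with a pseudocount of 0.1 (adjusted p = 0.0536). Ccr1, the receptor of Ccl3 and Ccl9, had 0, 9.12 and 0 in the control and 186, 70.2 and 47.7 in the ILK-K5 libraries (log2 fold change 5.32, SE 1.02, adjusted p = 0.0213). ILK-K5 library 1 was the highest, and the call was lost without any 1 of the ILK-K5 libraries (adjusted p 0.0618 to 0.121), in edgeR (adjusted p = 0.0572), in DESeq2 (adjusted p = 0.0904) and with a pseudocount of 0.1 (adjusted p = 0.0685).

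The receptors that fell were Ackr4 and Ackr3, the receptors with the highest FPKM in the sorted control libraries. Ackr4 clears Ccl19, Ccl21 and Ccl25, and keratinocytes are among its known sites of expression. It had 3921, 3712 and 1297 normalized counts in the control and 644, 747 and 654 in the ILK-K5 libraries (log2 fold change -1.97, SE 0.41, adjusted p = 0.0332). The ILK-K5 libraries were close to each other and below every control, of which library 3 was lowest. The call was lost in 5 of the 6 fits with a library left out, all but that without control library 3 (adjusted p 0.074 to 0.16). Acad11 overlaps 8.9% of its exon bases on the opposite strand. Ackr3, which clears Cxcl12, had 490, 406 and 231 in the control and 89.9, 103 and 85.7 in the ILK-K5 libraries (log2 fold change -1.94, SE 0.35, adjusted p = 0.0168), and the call was lost without control library 2 or any 1 of the ILK-K5 libraries (adjusted p 0.0573 to 0.0894).

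Mean FPKM of Ackr4 was 57.7 (range 25.1 to 76.0) in the controls and made up 73.3% of the summed FPKM of receptors, and that of Ackr3 was 11.5 (7.07 to 15), or 14.6%. Cxcr4 followed at 2.76 (0.766 to 4.49), Ccr4 at 2.27 (0.106 to 3.47) and Cxcr5 at 1.48 (0.79 to 2.17), and the ranges of these 3 overlapped. In ILK-K5, Ccr2 led at 23.5 (19.4 to 26.3), with Ccrl2 at 22.4 (18.2 to 26.6), Cxcr4 at 14.6 (7.43 to 18.4) and Ackr4 at 13.2 (12.5 to 14.5). Ccr2 and Ccrl2 did not differ beyond their ranges, nor did Cxcr4 and Ackr4.

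Cxcr4, the receptor of Cxcl12, had 13.5, 53.2 and 79.1 normalized counts in the control and 131, 316 and 324 in the ILK-K5 libraries. Library 1 was lowest in both genotypes, and Cxcr4 did not pass the test (log2 fold change 2.59, 95% interval 1.12 to 4.05, adjusted p = 0.071). The adjusted p was 0.0372 without control library 3 and 0.00323 in DESeq2. Xcr1, a receptor of cross-presenting dendritic cells, had 4.82, 7.60 and 7.98 in the control and 41.0, 29.3 and 47.7 in the ILK-K5 libraries and did not pass either (log2 fold change 2.37, 95% interval 1.07 to 3.67, adjusted p = 0.0628, and 0.00461 in DESeq2). Cxcr2, the receptor of Cxcl1, Cxcl2 and Cxcl5 on neutrophils, had 27.0, 18.2 and 18.9 in the control and 49.0, 51.7 and 54.5 in the ILK-K5 libraries (log2 fold change 1.26, 95% interval 0.23 to 2.28, adjusted p = 0.252). In all 3 the genotypes did not overlap.

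Ccr4, the receptor of Ccl17 and Ccl22, had the largest fitted fall of all tested members without passing the test. It had 2.89, 94.3 and 87.8 normalized counts in the control and 0, 3.86 and 7.79 in the ILK-K5 libraries (log2 fold change -3.20, 95% interval -6.23 to -0.17, adjusted p = 0.36). Control library 1 was as low as the ILK-K5 libraries, and the adjusted p was 0.0319 without it and 0.0113 in DESeq2. Cxcr5, a receptor of B cells and follicular T cells, had 59.8, 41.1 and 21.8 in the control and 47.8, 31.6 and 24.4 in the ILK-K5 libraries (log2 fold change -0.18, 95% interval -1.39 to 1.04, adjusted p = 0.955). Ccr9, the receptor of Ccl25, had 18.3, 15.2 and 5.80 in the control and 25.0, 5.40 and 12.7 in the ILK-K5 libraries (log2 fold change 0.03, 95% interval -1.73 to 1.79, adjusted p = 0.996), with 21.5% of its exon bases on overlapping genes. Both overlapped between the genotypes.

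**Figure D4:**
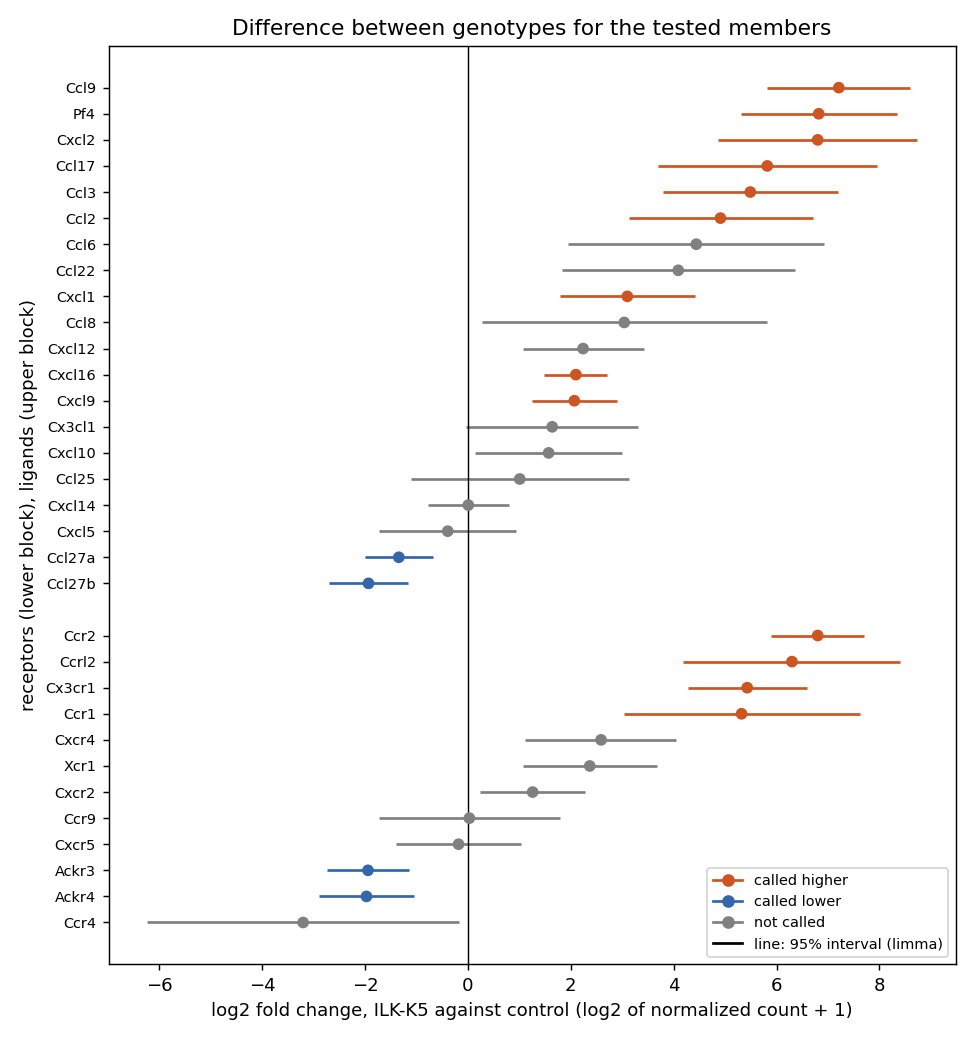
Log2 fold change of ILK-K5 against control (horizontal axis, log2 of the normalized count plus 1) for the 20 tested ligands (upper block) and 12 of the 13 tested receptors (lower block), with 95% intervals from limma as lines. Orange points were called higher, blue points lower and grey points were not called. The orange intervals lie above 0 and the 4 blue ones below it, and the grey interval of Ccr4, from -6.23 to -0.17, is the widest.

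Within the replicates that shared a column name ending, 2 and 3, the higher calls were 8 ligands and 5 receptors, and the lower calls were 0 ligands and 1 receptor, against 2.46% higher and 0.455% lower of the 16033 genes tested there. The higher calls of Cxcl1 (adjusted p = 0.0548) and Ccr1 (adjusted p = 0.124) and the lower calls of Ccl27a (adjusted p = 0.0762), Ccl27b (adjusted p = 0.0647), Ackr3 (adjusted p = 0.0713) and Ackr4 (adjusted p = 0.165) were lost, while Cxcr4 rose (log2 fold change 2.29, adjusted p = 0.0175) and Ccr4 fell (log2 fold change -3.82, adjusted p = 0.0173). Replicate 1 had 1 library per genotype and gave no value of its own. ILK-K5 library 1 was the highest of the 3 for 9 of the 14 members called higher and library 2 for the other 5.

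The members below the filter, 19 ligands and 10 receptors, were not tested. The ligands were Ccl1, Ccl4, Ccl5, Ccl7, Ccl11, Ccl12, Ccl19, Ccl20, Ccl21a, Ccl21b, Ccl24, Ccl26, Ccl28, Cxcl3, Cxcl11, Cxcl13, Cxcl15, Cxcl17 and Xcl1. The receptors were Ackr1, Ackr2, Ccr3, Ccr6, Ccr7, Ccr8, Ccr10, Cxcr1, Cxcr3 and Cxcr6. Ccr8 and Cxcr1 had 0 reads in all 6 libraries, which allows up to 3 reads in each. With no read in any control library, Ccl24, an eosinophil attractant, had a level at least 3.9-fold higher in the ILK-K5 libraries. Ccr6, the receptor of Ccl20, also had no control read, with 1, 1 and 14 reads in the ILK-K5 libraries. Ackr2, a scavenger of inflammatory CC chemokines, had 0, 13 and 15 reads in the control libraries and none in the ILK-K5 libraries, at least 3.54-fold lower in ILK-K5, or at least 1.89-fold without control library 2. Cxcl15 had 43 of its control reads in library 1. Ccr10, the receptor of Ccl27, had 17 reads in control library 3, 10 in ILK-K5 library 2 and none elsewhere. Cxcr6, the receptor of Cxcl16, had 11 reads in control library 3 and none in the other controls, and 28, 8 and 9 reads in the ILK-K5 libraries. Cxcr3, the receptor of Cxcl9 and Cxcl10, had 0 reads in the controls and 0, 1 and 4 reads in the ILK-K5 libraries.

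Set side by side, ligands and their receptors were thus both called higher for Ccl2 with Ccr2, Ccl3 with Ccr1, and Ccl9 with Ccr1. Each of these pairs holds an unstable call. Those of Ccl2 and Ccr1 were lost without any single ILK-K5 library, and Ccr1 was not called in edgeR or DESeq2. Ccl17 was higher, while its receptor Ccr4 was not called and had a fold change of the opposite sign. Cxcl16 and Cxcl9 were higher, and their receptors Cxcr6 and Cxcr3 were untested. Cxcl1 and Cxcl2 were higher and their receptor Cxcr2 did not pass the test. Cx3cr1 was higher and its ligand Cx3cl1 did not pass. Of the 2 receptors of Cxcl12, Ackr3 was lower, whereas the values of Cxcr4 and of Cxcl12 itself were higher in every ILK-K5 library without passing. Which cells held these transcripts was not measured.

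The lists of related genes were described in the same way, against 2.93% higher and 0.599% lower of all genes tested. These shares are those of limma at the adjusted threshold. In limma, 2011 of the 16368 genes had an unadjusted p below 0.05 in either direction. Over the same genes edgeR called 422 higher and 87 lower, and DESeq2 called 772 higher and 280 lower. These backgrounds apply to every list that follows. Of 37 genes of G protein and chemotaxis signalling, all were tested. limma called 17 higher and 0 lower (23 and 0 at an unadjusted p below 0.05), edgeR 15 and 0 and DESeq2 18 and 0, and the list had a median log2 change of 1.67. The smallest adjusted p values belonged to Rgs1, which shortens G protein signalling (20.3, 21.3 and 50.8 in the control and 1765, 1029 and 885 in the ILK-K5 libraries, adjusted p = 3.37e-04), and Lyn, a Src family kinase (11.6, 15.2 and 26.1 against 376, 403 and 305, adjusted p = 5.83e-04). Dock2, which activates Rac in leukocytes (10.6, 10.6 and 19.6 against 264, 236 and 188, adjusted p = 0.00104), Ncf1, a subunit of the phagocyte NADPH oxidase (4.82, 13.7 and 10.2 against 206, 354 and 218, adjusted p = 0.00104), and Fgr, a Src family kinase of myeloid cells (0, 0 and 3.63 against 167, 235 and 126, adjusted p = 0.00139), followed. For each of these genes every ILK-K5 library was above every control.

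Of 17 other chemoattractants and their receptors, 10 were tested, and 4 were higher and 0 lower in limma, edgeR and DESeq2 alike (5 and 0 in limma at an unadjusted p below 0.05). The 4 were receptors. C3ar1, the receptor of complement C3a, had 16.4, 3.04 and 11.6 in the control and 949, 1544 and 973 in the ILK-K5 libraries (adjusted p = 3.06e-04), and C5ar1, the receptor of complement C5a, had 1.93, 0 and 0 against 60.3, 80.2 and 69.2 (adjusted p = 0.00313, but 0.0519 without ILK-K5 library 2). Gpr183, an oxysterol receptor, had 8.68, 9.12 and 7.26 against 208, 261 and 261 (adjusted p = 3.68e-04). Cmklr1, the chemerin receptor to which Ccrl2 presents its ligand, had 1.93, 0 and 1.45 against 77.4, 205 and 93.5 (adjusted p = 0.00206). Of 9 proteases that cut chemokines, 6 were tested. Mmp12, the macrophage elastase, and Mmp9 were higher and 0 were lower in limma and edgeR, with 1 lower in DESeq2 and 1 at an unadjusted p below 0.05 in limma. Mmp12 had 64.6, 59.3 and 39.9 against 2102, 1830 and 1465 (adjusted p = 8.22e-05), and Mmp9 had 0, 1.52 and 4.35 against 41.0, 54.0 and 63.3 (adjusted p = 0.0149), a call lost without control library 2 or any 1 of the ILK-K5 libraries (adjusted p 0.0567 to 0.123).

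Macrophage markers were higher in the same libraries as the chemokines and receptors, and markers of other leukocytes in part. Of 15 macrophage markers, 14 were tested and all 14 were higher (median log2 fold change 6.98), of which C1qa lost its call in 3 of the 6 fits with a library left out and the others kept theirs. Their summed normalized counts were 390 to 438 in the control and 17591 to 24160 in the ILK-K5 libraries. Of 8 markers of Langerhans and dendritic cells, limma called 4 higher, namely Itgax, Epcam, H2-Ab1 and Cd74. edgeR called 2 of the list higher and DESeq2 called 6, each with 0 lower. The sum of the list was 538 to 1508 in the control and 17810 to 33224 in the ILK-K5 libraries. Epcam, also an epithelial gene, had 453 to 813 of these counts in the control, and H2-Ab1 and Cd74, which serve antigen presentation, had 12534 to 19066 and 2529 to 11358 in the ILK-K5 libraries. Flt3, Zbtb46 and Xcr1 were not called by limma, and of these DESeq2 called Xcr1 higher (adjusted p = 0.00461). The call of Itgax held without any single library, whereas those of Epcam, H2-Ab1 and Cd74 were lost in 5, 4 and 4 of the 6 fits with a library left out. Cd207, which encodes langerin and defines Langerhans cells, had 7.72, 42.6 and 68.2 in the control and 425, 133 and 108 in the ILK-K5 libraries. Its groups did not overlap. Cd207 was not called by limma (adjusted p = 0.148) or edgeR (adjusted p = 0.182) but was called higher by DESeq2 (adjusted p = 0.0171). Of 8 neutrophil markers, 3 were tested and 2, S100a8 and S100a9, were higher (lost in 4 and 1 of those fits), while Ly6g had 0 reads in all ILK-K5 libraries and Elane, Camp and Ngp were at the floor in both genotypes. The third tested gene, Csf3r, was not called by limma (adjusted p = 0.139) or edgeR (adjusted p = 0.135) but was higher in DESeq2 (adjusted p = 0.0224). The sum of the neutrophil list was 16 to 27 in the control and 170 to 248 in the ILK-K5 libraries. Of 7 T cell markers, 4 were tested and Cd4 was higher, and their sum was 117 to 173 in the control and 256 to 310 in the ILK-K5 libraries. Cd4 had 7.98 to 15.4 of these counts in the control and 96.4 to 122 in the ILK-K5 libraries. Cd3e and Cd3g were not called by limma, nor was Cd3d, whose fold change had the opposite sign (log2 fold change -0.47, adjusted p = 0.855). DESeq2 called Cd3g higher (adjusted p = 0.0278) but not Cd3e or Cd3d. Trac, Cd8a and Lck were below the filter. The part of these cell types in the values of the chemokines and receptors was not tested.

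Of the other lists, 1 of 4 tested fibroblast markers, Col3a1, was higher. Of 5 tested melanocyte markers 1, Mitf, was lower (lost in 2 of those fits), while 3 had a positive and 2 a negative fold change. Tyrp1 went the other way, with 2.89, 0 and 5.08 in the control and 34.2, 11.6 and 48.7 in the ILK-K5 libraries. It was not called by limma (adjusted p = 0.119) but was higher in DESeq2 (adjusted p = 0.0133). Of the 7 basal keratinocyte markers 0 were called by limma, edgeR or DESeq2, and 1 had an unadjusted p below 0.05 in limma. Of the 7 bulge SC markers, of which Krt15 and Itga6 are also in the basal list, Cd34 was the one called. The sum over mast cell markers was at most 22.4 in any library, and their defining genes Cpa3 and Tpsb2 had 0 reads throughout. Kit, the 1 tested gene of that list, had 0, 3.04 and 0 in the control and 21.6, 20.1 and 22.4 in the ILK-K5 libraries. Kit was not called by limma (adjusted p = 0.0578) or edgeR (adjusted p = 0.0714) but was higher in DESeq2 (adjusted p = 0.00782). Of the 2 tested endothelial markers limma and edgeR called 0, DESeq2 called 1 lower, and 1 had an unadjusted p below 0.05 in limma. The endothelial sum was 60.2 to 178 in the control and 81.8 to 93.4 in the ILK-K5 libraries. Summed over basal keratinocyte markers, the libraries ranged from 105043 to 206199 in the control and from 74629 to 114438 in the ILK-K5 libraries.

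**Figure D5:**
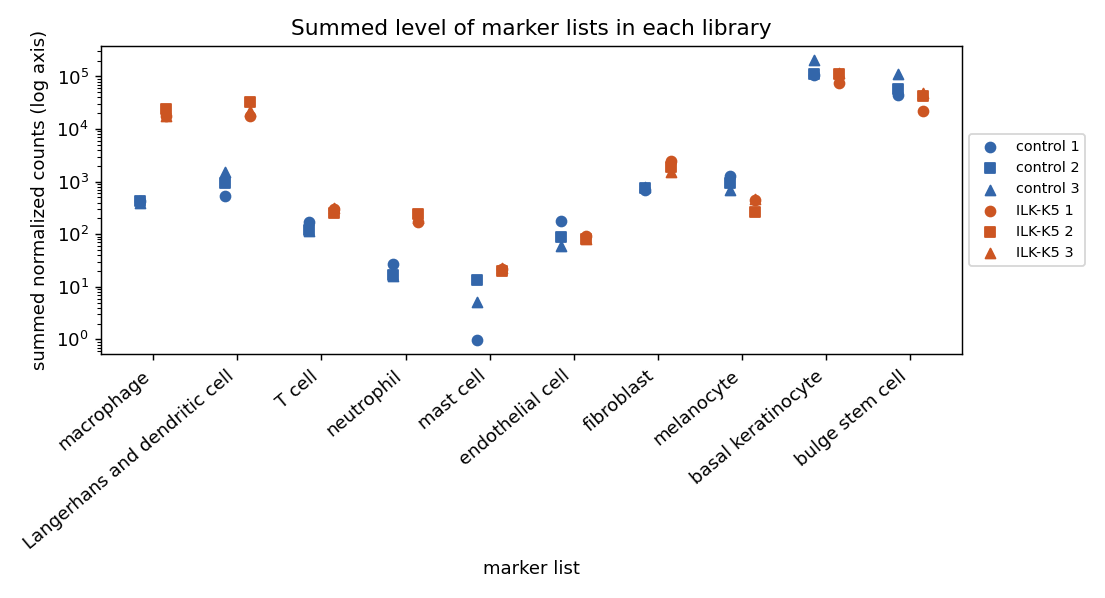
Summed normalized counts (log axis) of 10 marker lists in each of the 3 control (blue) and 3 ILK-K5 (orange) libraries. The macrophage and the Langerhans and dendritic cell sums are at most 1508 in the controls and at least 17591 in ILK-K5, and the basal keratinocyte sums overlap between the genotypes.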

How the data were processed

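Libraries of bulge SCs sorted at postnatal day 21 were analysed, 3 per genotype, grouped by the genotype given in the labels. The authors removed adapters and ribosomal reads, aligned to GRCm38 with TopHat2 2.0.14 and Bowtie2 2.2.4 and normalized with DESeq2 1.6.3, per the methods and the submitters' processing notes. The counting program and its strand setting are not given in the sources used here. The signal deposited by the authors is the read count of each gene over the size factor of its library, and all values (100%) were whole multiples within 0.01 of what 1 read is worth, so that reads were recovered. The FPKM values deposited by the authors are the same counts times 1 constant per gene. The deposited tables of the authors' own comparison, with fold changes and p-values, were not used. Symbols, exons and coordinates came from GENCODE M21 (GRCm38), in which 97.3% of the 43274 genes had a symbol.

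Genotypes were compared with limma 3.58.1 (lmFit, eBayes with a trend, two-sided) in R 4.3.3. The fit used log2(normalized count + 1) of 16368 genes with a mean of at least 10, and called at a Benjamini-Hochberg adjusted p of at most 0.05. The script was tested on simulated data. Count ratios of genes with 1 to 3 control reads have exact Clopper-Pearson intervals (95%), and a group at 0 reads was set to 3 reads per library. Intervals and floors cover counting error only. Alternatives were TMM scaling, other pseudocounts and filters, edgeR 4.0.16, DESeq2 1.42.0, terms for replicate or column name ending, replicates 2 and 3 only, and each library left out. Values per library were given for called members, for the 5 ligands and 5 receptors highest in control FPKM, for uncalled members whose genotypes did not overlap and for the largest falls. Ccl8, Cxcl10, Ccl25, Ccr9 and the untested members with values were added after their values were seen. The members and lists were chosen with earlier results of these data known. Of the list genes, 1, Trdc, had no row. A member that meets these rules is counted but not reported here by name. Tables and plots were made in Python 3.11.15 with pandas 2.3.3 and matplotlib 3.10.9.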

Additional observations from a re-analysis of the deposited data

How the results depend on the processing

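The 18 called members kept their direction in each of the 16 alternatives that tested them (Ccl2 and Ccl3 were below the minimum mean of 50), and 8 of them, with Ccl9, Cxcl16, Cxcl2, Pf4, Ccr2, Ccrl2 and Cx3cr1 among these, were called in each of the 6 fits with a library left out. In those fits the calls ranged from 5 to 11 for higher ligands, 0 to 2 for lower ligands, 4 to 6 for higher receptors, 0 to 2 for lower receptors and 249 to 647 for all genes, against 9, 2, 5, 2 and 577 in the fit reported. Fewer libraries were fitted in each. A pseudocount of 0.1 gave 3 higher receptors, and replicates 2 and 3 alone gave 0 lower ligands and 1 lower receptor. Over all genes, DESeq2 called 1052, the term for the column name ending 1132 and the replicate block 1117; the cause of the rise was not tested in any of the 3. Under the replicate block 12 ligands and 7 receptors were higher and 2 ligands and 3 receptors lower, with Ccl6, Ccl22, Cxcl12, Cxcr4, Xcr1 and Ccr4 called in addition. The term for the ending gave 13 and 7 higher and 2 and 3 lower, Cxcl10 being a further ligand. Deviations of same-numbered libraries correlated at 0.529, 0.0198 and 0.307, so the numbers were not taken as pairs, and ILK-K5 library 2 correlated better with control library 3 (0.498) than with its own number. These libraries, 2 and 3, share a column name ending. ILK-K5 library 1 correlated at -0.06 and -0.553 with control libraries 2 and 3, and control library 1 at -0.45 and -0.325 with ILK-K5 libraries 2 and 3. The fit reported has no term for the ending, and the cause of these values was not tested. TMM scaling shifted the median of all genes by 0.027 and changed no call of a member. The sign turned in uncalled members only. Cxcl14 had a log2 fold change of -0.07 in edgeR and -0.10 in DESeq2, and with a library left out it ranged from -0.36 to 0.23. Over the same fits, Cxcl5 ranged from -0.85 to 0.15, Ccr9 from -0.46 to 0.55 and Cxcr5 from -0.56 to 0.15, and the cause was not tested. Depth limits the 29 untested members, for which 1 read is worth up to 1.52 normalized counts.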
